A study of Solanum lycopersicum with 32 samples.

Results

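RNA polymerase II (RNAPII) and acetylation of lysine 9 of histone H3 (H3K9ac) were compared in tomato leaves after 1 h of heat. The 4 chromatin immunoprecipitation (ChIP-seq) libraries were taken by their labels, 2 for RNAPII and 2 for H3K9ac, out of 32 samples in the series, 30 of which had a peak list. All came from wild type *Solanum lycopersicum* cv. M82, kept at 24 °C in days of 16 h light and moved to 45 °C when 4 weeks old. The RNAPII and H3K9ac libraries of 0 h (no heat) and 6 h at 45 °C, also 2 each, served as comparison, and H3K4me3, H3K18ac and H3K27ac at the same times were used to describe the sites. Unheated leaves were sampled only at 0 h, and the effects of heat and of the hour of sampling cannot be told apart. The study states that a replicate was a random pool of seedlings, and a leaf mixes many cell types, so the peaks of RNAPII and H3K9ac need not come from the same cells.

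RNAPII is the enzyme that transcribes protein-coding genes, and it is found at promoters and along the gene bodies that it reads. H3K9ac is laid down by histone acetyltransferases on the nucleosomes around the start of active genes, and in plants it is usually strongest just downstream of the start. H3K4me3 marks the same 5′ ends, and H3K18ac and H3K27ac are further acetylations of active chromatin. An RNAPII peak without H3K9ac, or one that runs on beyond it, is therefore polymerase on chromatin where this mark was not called.

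A peak is a stretch where a list records more sequenced fragments than the local background, and its fold is the ratio of the 2 at the summit, the highest point of the peak. Peaks with a q-value of at most 0.05 on the 12 numbered chromosomes were used. At 1 h the RNAPII lists held 67874 and 69025 such peaks, which covered 88.6 and 87.7 Mb with median widths of 755 and 734 bp. The H3K9ac lists held 51272 and 50373 peaks over 50.1 and 52.4 Mb, with medians of 660 and 716 bp. RNAPII thus occupied more of the genome than H3K9ac at 1 h. At 0 h the covered lengths lay close together, with 69.7 and 67.0 Mb for RNAPII and 73.2 and 68.3 Mb for H3K9ac, and at 6 h RNAPII covered 64.3 and 61.4 Mb and H3K9ac 50.5 and 53.5 Mb. H3K9ac therefore covered about the same length at 1 h and 6 h, while RNAPII had its longest cover at 1 h.

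The depth of a list was taken as its lowest background in fragments over a base, recovered from the fold and p-value of each peak. It was 7.33 and 7.05 for RNAPII and 4.47 and 5.53 for H3K9ac at 1 h, against 9.53 and 7.98 and 7.40 and 7.38 at 0 h, and 6.94 and 5.61 and 5.15 and 6.49 at 6 h. The H3K9ac lists of 1 h and 6 h were thus shallower by this measure than those of 0 h, and weak acetylation is missed more easily there. Fragments over a base also depend on the fragment length used in peak calling, and its part was not separated. The shortest H3K9ac peak, which follows that length, was 148 and 156 bp at 1 h. It was 172 and 184 bp at 0 h and 162 and 170 bp at 6 h. The part of depth in the results was not tested beyond the lists of equal length given below. Paired libraries of a target and time differed by less than the sampling noise, with a mean chi-square per matched peak of 0.616 for RNAPII and 0.478 for H3K9ac at 1 h, whereas libraries of different times gave 3.29 to 10.6. Each pair was therefore counted as 1 sample in describing a time. Values are given for each library or as the mean and range of the 4 pairings of an RNAPII with an H3K9ac library, without SD.

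About as many RNAPII peaks had H3K9ac as lacked it after 1 h of heat, whereas most H3K9ac peaks had RNAPII. Of the RNAPII peaks, 51.7% in library 1 and 51.4% in library 2 overlapped H3K9ac by at least 1 bp. Of the H3K9ac peaks, 90.0% (89.8% to 90.2% over the pairings) overlapped RNAPII. By length, 42.6% (41.7% to 43.6%) of the RNAPII bp lay under H3K9ac and 73.3% of the H3K9ac bp lay under RNAPII. The shared length as a share of the length under either was 0.369.

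The 0 h and 6 h lists were more even in both directions. RNAPII peaks with H3K9ac made up 70.0% and 70.1% in the 0 h libraries and 57.5% and 58.0% in the 6 h libraries, so by number of peaks the values at 1 h were the lowest and did not overlap with the others. By length this did not hold against 6 h, where 41.2% (40.2% to 42.1%) of the RNAPII bp lay under H3K9ac, while at 0 h it was 56.4%. H3K9ac peaks with RNAPII made up 72.3% at 0 h and 67.2% at 6 h, both under the share at 1 h. On average RNAPII peaks had H3K9ac less often at 1 h than at the other times by a difference of -12.3 percentage points. The exact permutation test over 2 libraries against 4, two-sided, gave p = 0.133, the smallest it can give. This test takes the libraries as labelled, and with each pair as 1 sample the smallest p is 0.667, so neither can reach 0.05. With equal numbers of peaks in every list the difference was -6.50 points, with 61.3% at 1 h, and by length it was -6.16 points (exact permutation p = 0.8).

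Where H3K9ac stood without RNAPII at 1 h, it was rare. Of 37741 regions with H3K9ac in both libraries, 93.2% had RNAPII in both libraries and 464 (1.23%) had no RNAPII peak within 1000 bp. At 0 h there were 3478 such RNAPII-free H3K9ac regions (7.02%), and at 6 h there were 4339 (9.53%). The 464 were narrow, with a median of 567.5 bp against 1201 bp for those with RNAPII, and 79.7% of them carried H3K4me3, 91.2% H3K27ac and 85.6% H3K18ac, against 62.9%, 87.3% and 98.6% of all H3K9ac regions. The strongest lay at chr12:56236974-56238065, where H3K9ac had a fold of 14.8 and 15.3, and H3K4me3 was in both libraries at each time. Neither RNAPII library had a peak there at 0 h, 1 h or 6 h. The mark shares of RNAPII-free H3K9ac regions differed in direction at the other times. H3K4me3 was at 43.6% of them against 51.0% of all H3K9ac regions at 0 h, and 54.3% against 56.9% at 6 h. For H3K18ac the values were 95.3% against 94.1% (0 h) and 96.5% against 92.6% (6 h). H3K27ac had 66.2% against 71.3% (0 h) and 90.2% against 87.7% (6 h).

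To describe RNAPII with and without H3K9ac, regions were formed from the merged peaks of the 2 RNAPII libraries and kept where both had a peak. At 1 h there were 52195. They were called acetylated where both H3K9ac libraries overlapped them, which held for 28216 (54.1%), and H3K9ac-free where neither library had an H3K9ac peak within 1000 bp, which held for 13245 (25.4%). The remaining 10734 (20.6%) lay between these limits. At 0 h, 38717 regions were acetylated and 5892 (11.0%) H3K9ac-free, and at 6 h the numbers were 32479 and 8657 (16.0%). The H3K9ac-free share was higher at 1 h than at 0 h and at 6 h on 12 of 12 chromosomes, with a range of 23.3% to 29.4% at 1 h. Chromosomes of the same libraries are not replicates. With lists of equal length 8523 regions (20.4%) were H3K9ac-free at 1 h, against 12.1% at 0 h and 16.1% at 6 h, and the acetylated share of 62.4% at 1 h was close to the 62.6% at 6 h. Free of every H3K9ac peak as deposited were 11644 regions.

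H3K9ac-free regions were short and weak beside acetylated regions. Their median width was 692 bp against 1658 bp, and the median of the lower fold of the 2 RNAPII libraries was 2.75 against 6.44. Regions in neither class were nearly as short and weak, with medians of 764 bp and 2.91. From the H3K9ac-free regions the nearest H3K9ac peak lay at a median of 3173 bp. Together the H3K9ac-free regions covered 11.9 Mb, against 70.6 Mb for the acetylated regions. Of the H3K9ac-free regions, 8.53% lay in the 403 of 807 bins of 1 Mb with the least H3K4me3. The share was 5.76% of the acetylated and 6.14% of all RNAPII regions. Both classes thus lay mostly in the bins with more of that mark. A bin describes 1 Mb and not the region itself. At 90.1% of the H3K9ac-free regions neither 1 h library had an H3K4me3 peak.

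The share of acetylated regions differed most by width at 1 h. Of the regions under 500 bp, 18.9% were acetylated at 1 h, and the share rose to 36.0%, 62.2%, 83.1% and 96.2% in the classes from 500, 1000, 2000 and 4000 bp upward. At 0 h the narrowest and the widest classes had 54.6% and 95.8%, and at 6 h 42.2% and 93.3%. The 3 times therefore lay farther apart among narrow regions than among the widest. In regions of 500 to 1000 bp, 36.0% were acetylated at 1 h against 73.3% at 0 h and 62.6% at 6 h. From 1000 to 2000 bp, 1 h and 6 h were nearly alike, with 62.2% and 63.6%, and from 2000 to 4000 bp the order turned, with 83.1% acetylated and 8.02% H3K9ac-free at 1 h against 73.3% and 15.1% at 6 h. The lower acetylated share at 1 h than at 6 h was thus found in narrow regions. Among regions over 4000 bp, 103 of 4706 were H3K9ac-free at 1 h.

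**Figure D1:**
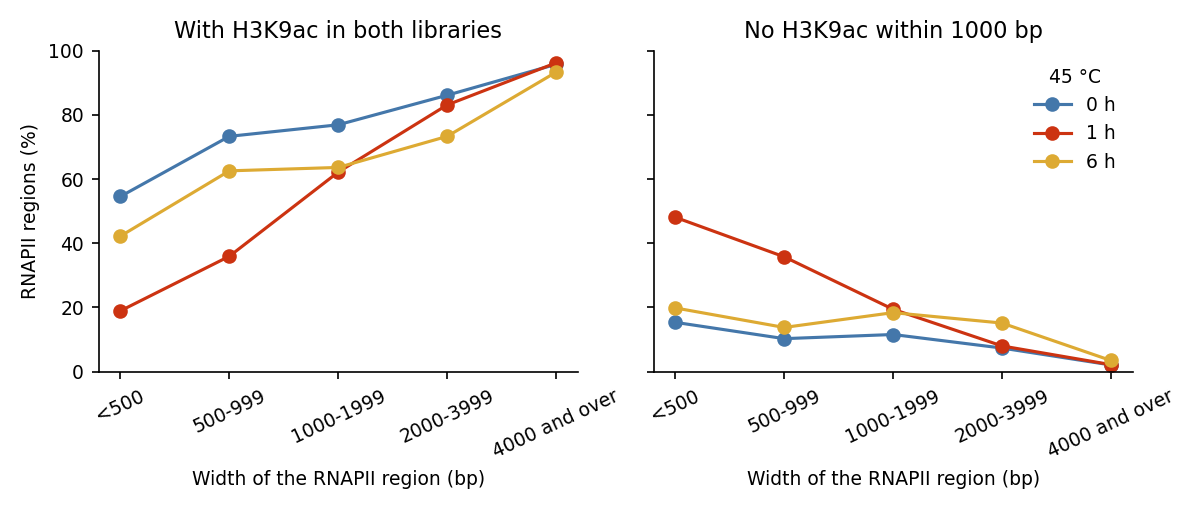
Share of RNAPII regions with H3K9ac in both libraries (left) and with no H3K9ac within 1000 bp (right), in percent, by the width of the region in bp, at 0, 1 and 6 h of 45 °C. Each point is all regions of a width class, and at 1 h the acetylated share runs from 18.9% in the narrowest class to 96.2% in the widest.

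Most H3K9ac-free RNAPII regions carried another acetylation but not H3K4me3. H3K18ac was present in both 1 h libraries at 78.4% of them, against 99.3% of acetylated regions and 91.8% of all RNAPII regions. H3K27ac was present at 53.9%, against 95.4% of acetylated and 77.3% of all regions. H3K4me3 was present at 6.52%, against 80.1% of acetylated and 48.2% of all regions. H3K4me3 thus divided the classes most sharply and H3K18ac least. Among regions of 500 to 1000 bp, the shares in H3K9ac-free and acetylated regions were 6.36% and 76.1% for H3K4me3, 51.8% and 91.5% for H3K27ac, and 81.5% and 98.4% for H3K18ac, so the order held at like width.

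By combination, 5778 H3K9ac-free regions (43.6%) had H3K18ac and H3K27ac without H3K4me3, 2040 (15.4%) had H3K18ac alone, and 710 (5.36%) had all 3 marks. A further 2067 (15.6%) had none of them in either library. Here a mark counts as present in both libraries or absent from both. Regions with a mark in only 1 library are in no combination, while the percents are of the whole class. Of the acetylated regions, 22321 (79.1%) had all 3. The 2067 H3K9ac-free regions with none of the 3 marks had a median width of 560 bp and a median fold of 2.36, the weakest of the 4 groups named here.

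Part of the H3K9ac-free RNAPII was not called before the heat. Of the H3K9ac-free regions, 3989 (30.1%) had no RNAPII peak in either 0 h library, against 2312 (8.19%) of the acetylated regions and 17.9% of all RNAPII regions at 1 h. The H3K9ac-free share was the higher on 12 of 12 chromosomes. The gap was smaller among regions of 500 to 1000 bp, with 28.9% and 19.2%. At 6 h no RNAPII peak was left in either library at 31.8% of the H3K9ac-free and 7.85% of the acetylated regions, against 19.0% of all regions. Here too the gap was smaller among regions of 500 to 1000 bp, with 31.3% and 19.2%. RNAPII was called at 1 h alone in 3038 H3K9ac-free regions (22.9%) and 1473 acetylated regions (5.22%), against 13.2% of all regions. Regions in neither class came close to the H3K9ac-free shares, with 28.6% lacking RNAPII at 0 h and 32.4% at 6 h. Among those of 500 to 1000 bp the 0 h share was 30.3%. In 22.4% of the regions in neither class RNAPII was called at 1 h alone. These shares were thus not particular to the H3K9ac-free class. With only 1 library of each target and time, the shares without RNAPII at 0 h were 42.5% to 44.1% in H3K9ac-free and 15.3% to 16.8% in acetylated regions. Of the 2067 H3K9ac-free regions with none of the 3 other marks, 55.8% had no RNAPII at 0 h, against 16.5% of those with H3K18ac and H3K27ac.

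Another part had H3K9ac at 0 h. Both 0 h libraries had an H3K9ac peak at 3600 H3K9ac-free regions (27.2%), against 95.0% of the acetylated regions and 69.5% of all regions. At 2879 of them RNAPII was in both 0 h libraries too. Of the 3600, H3K9ac was in both 6 h libraries again at 1130 and in neither at 1455. These were 8.53% and 11.0% of the H3K9ac-free class, against 90.4% and 1.56% of the acetylated regions. Among regions in neither class the shares were 25.9% and 14.7%. The larger part of the H3K9ac-free class, 6935 regions (52.4%), had no H3K9ac peak at 0 h or at 6 h. This held for 1.72% of the acetylated regions and 25.6% of the regions in neither class. Regions with H3K18ac and H3K27ac had H3K9ac at 0 h in 38.2% of cases, and those with none of the 3 marks in 0.919%. These counts of lost H3K9ac rest on the shallower 1 h lists.

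**Figure D2:**
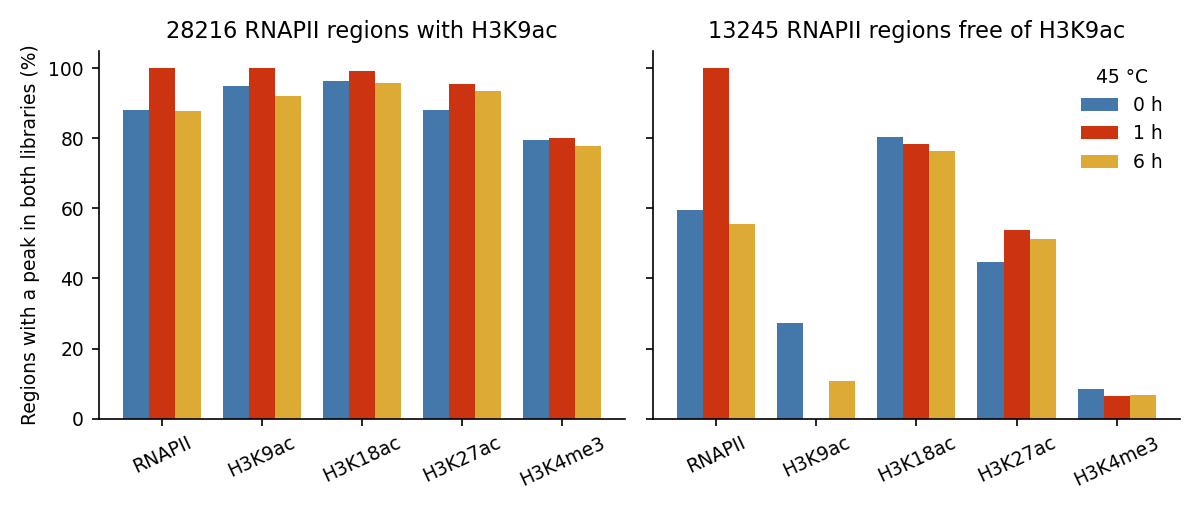
Share of the RNAPII regions of 1 h with a peak of each target in both libraries at 0, 1 and 6 h of 45 °C, in percent, for the 28216 acetylated (left) and the 13245 H3K9ac-free regions (right). The 1 h bars of RNAPII and H3K9ac are 100% or 0% by the definition of the classes, and H3K4me3 at 1 h stands at 80.1% on the left and 6.52% on the right.

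The H3K9ac-free regions with the highest RNAPII fold were well above the rest of their class. At chr11:715468-716682 the fold was 23.2 and 22.2, with the nearest H3K9ac 11563 bp away. At chr12:735478-737003 it was 21.7 and 22.1, and at chr12:15628111-15632256 it was 21.1 and 21.1. H3K18ac and H3K27ac were in both 1 h libraries at each of the 3 sites, H3K4me3 in neither, and RNAPII was in both libraries at 0 h and 6 h. The site at chr12:61702645-61703416 had a fold of 19.7 and 19.6 and, of the 4 histone marks at 1 h, H3K18ac in both libraries and no other in either. The fifth, chr6:7070370-7091914, was 21545 bp wide with folds of 19.2 and 19.5. It had no RNAPII in either 0 h library and RNAPII in both at 6 h.

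Acetylated regions reached higher folds. The strongest was chr10:46493772-46500255, where RNAPII had a fold of 38.0 and 38.3 and H3K9ac 25.9 and 23.6. RNAPII ran 2892 to 3884 bp past H3K9ac there, and the summits lay 1904 to 1932 bp apart. The next, chr3:8195839-8207314, had RNAPII folds of 37.7 and 37.6 and an extension of 0 to 16 bp, so that acetylation reached nearly to both ends or past them. The other 3 were chr7:5006713-5019176, with an extension of 6490 to 6646 bp, chr3:25153890-25170535, with 10156 to 10930 bp, and chr8:51940895-51947714, with 640 to 1158 bp. Strong RNAPII thus went with short as well as long extensions.

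RNAPII reached beyond the acetylated stretches in most places where the peaks met. Overlapping RNAPII and H3K9ac peaks of a pairing were chained into clusters, 26681 on average at 1 h, and the extension is the RNAPII length outside the outermost H3K9ac ends with both sides added. Its median was 524.5 bp in RNAPII library 1 and 516.5 bp in library 2. The quartiles were 239 and 998 bp, and 24.9% of the clusters had an extension over 1000 bp. RNAPII passed H3K9ac at both ends in 31.1% of the clusters, at a single end in 60.5% and at neither in 8.38%. In the opposite direction H3K9ac reached 202 bp past RNAPII at the median, and over 1000 bp in 6.25%.

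At the other times the order was reversed. The median extension of RNAPII was 204 and 193 bp at 0 h and 260.5 and 249.5 bp at 6 h, while H3K9ac ran 447 bp past RNAPII at 0 h and 364 bp at 6 h. The values at 1 h lay apart from all others, by 293.8 bp on average for the RNAPII extension (exact permutation test, two-sided, p = 0.133, the smallest possible). Extensions over 1000 bp were found in 7.83% of the clusters at 0 h and 11.4% at 6 h, and RNAPII passed both ends in 15.3% and 20.6%. In clusters of a single RNAPII and a single H3K9ac peak, the median width of RNAPII was 553, 1073 and 561 bp at 0, 1 and 6 h, and that of H3K9ac was 875, 1002 and 890.5 bp. The RNAPII peak thus was the one whose width stood out at 1 h.

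**Figure D3:**
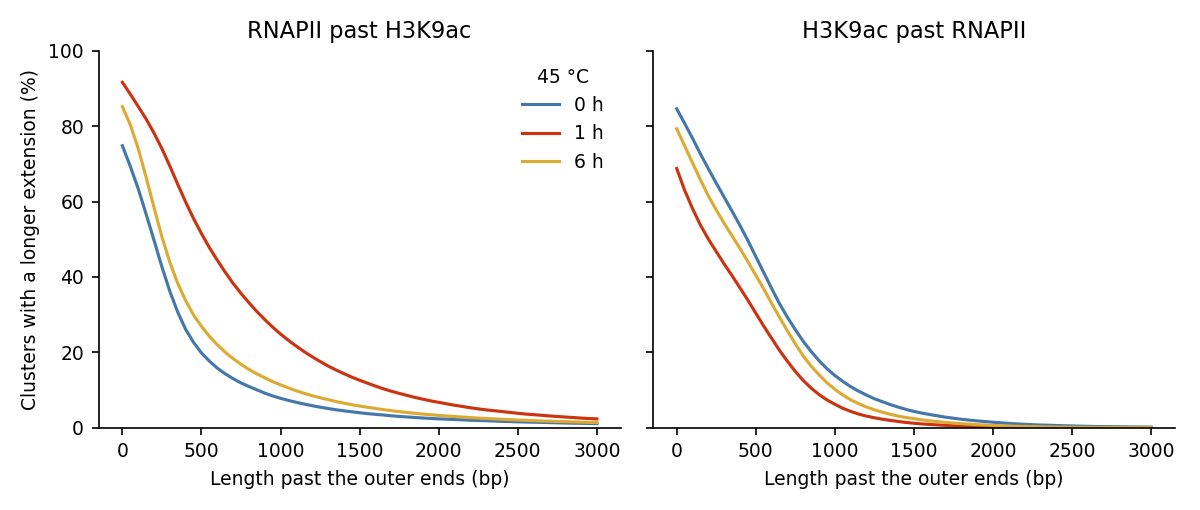
Share of clusters of overlapping peaks, in percent, whose RNAPII runs farther past H3K9ac (left) or whose H3K9ac runs farther past RNAPII (right) than the length on the horizontal axis in bp, as the mean of 4 library pairings at 0, 1 and 6 h. At 1000 bp the 1 h curve stands at 24.9% on the left and 6.25% on the right.

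The extension was also measured at places drawn alike from all times, a choice made after seeing the data. These were 20836 merged RNAPII stretches of the 6 RNAPII libraries in which each RNAPII and each H3K9ac library had a peak. The median extension there was 127 bp at 0 h, 556 bp at 1 h and 267 bp at 6 h. RNAPII covered 68.8% and 66.8% of their length in the 0 h libraries, 85.2% and 84.5% in the 1 h libraries and 63.9% and 61.6% in the 6 h libraries. For H3K9ac the values were 63.5% and 61.0% before heat, then 50.4% and 52.4% (1 h), then 46.3% and 48.2% (6 h). RNAPII cover was thus highest at 1 h, whereas H3K9ac cover was lower at 1 h than at 0 h and lowest at 6 h.

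A shift in fragment length moves peak ends too. The shortest peak of a list, which follows the fragment length used in peak calling, was 34 to 48 bp longer for RNAPII than for H3K9ac at 1 h, 2 to 15 bp at 0 h and 22 to 30 bp at 6 h. These gaps are smaller than the change of the extension, and their part in it was not tested.

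Stronger RNAPII ran farther past H3K9ac. In 4 equal groups of the acetylated regions by the lower RNAPII fold of the 2 libraries, the median extension was 259.9, 459, 526.5 and 630.8 bp from weakest to strongest, and the median width of the regions went from 789 to 3751 bp. A strong peak is wide at a given threshold, so width and fold move together here.

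In length, the RNAPII of 1 h was made up of 37.6 Mb under H3K9ac (42.6%), 20.4 Mb past the outer acetylated ends (23.1%), 8.57 Mb between acetylated stretches of a cluster (9.73%) and 21.6 Mb in peaks with no H3K9ac overlap (24.5%). At 0 h the 4 parts were 38.5, 11.9, 6.08 and 11.8 Mb. The acetylated length was therefore nearly alike at 0 h and 1 h, and the net increase of RNAPII length at 1 h was outside H3K9ac. These are totals and do not follow single places over time. At 6 h they were 25.9 Mb (41.2%), 14.2 Mb (22.6%), 4.91 Mb (7.81%) and 17.9 Mb (28.5%). As a share of its length, RNAPII was thus no less acetylated at 1 h than at 6 h, and the share in peaks with no H3K9ac overlap was higher at 6 h.

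Long extensions were few. An extension over 5000 bp in all 4 pairings was found in 160 of 28216 acetylated regions, and over 10000 bp in 22. The longest, 30580 to 31891 bp, was at chr2:7566141-7598533, where RNAPII had folds of 24.5 and 26.4 and H3K9ac only 2.97 and 2.47. The second, 22700 to 22947 bp, was at chr6:7042799-7070177, where H3K9ac was strong, with folds of 35.6 and 32.9. It ended 192 bp before the H3K9ac-free region on chromosome 6 named above, so that RNAPII covered nearly all of a span of 49116 bp with H3K9ac in a small part of it. The others were chr2:46924647-46946994 with 19722 to 20039 bp, chr3:34000013-34018989 with 17245 to 17338 bp, and chr9:7025882-7045591 with 16459 to 16735 bp. In these 3, H3K9ac had folds between 21.6 and 27.7, and RNAPII and H3K9ac were in both libraries at all 3 times.

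The summits of RNAPII and H3K9ac rarely coincided. From an RNAPII summit to the nearest summit of an overlapping H3K9ac peak the median distance at 1 h was 390.5 bp in both RNAPII libraries, with quartiles of 261.5 and 609.8 bp. Only 14.2% lay within 200 bp, 65.4% within 500 bp and 89.0% within 1000 bp. The summits of the 2 RNAPII libraries lay 47 and 48 bp apart at the median, depending on the direction, and those of the 2 H3K9ac libraries 77 and 70 bp, so the distance between the targets was larger than the repeatability of either.

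**Figure D4:**
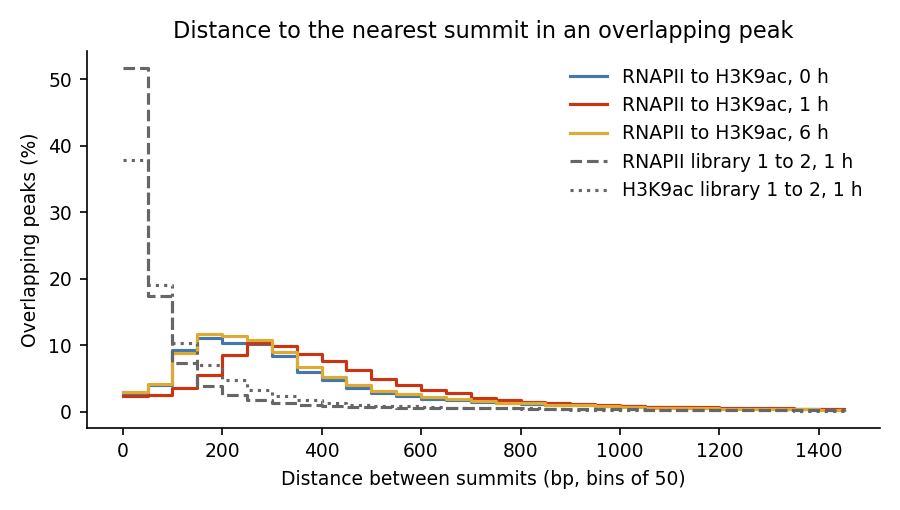
Distance from a summit to the nearest summit in an overlapping peak, in bp in bins of 50, against the share of overlapping peaks in percent, for RNAPII to H3K9ac at 0, 1 and 6 h (colours) and between the 2 libraries of a target at 1 h (grey). The 1 h curve peaks at a longer distance, with a median of 390.5 bp, while the grey curves have medians of 47 and 77 bp.

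The median distance between summits was shorter at the other times. It was 310 and 312.5 bp in the 0 h libraries and 300 and 300.5 bp in the 6 h libraries, and 27.5% and 28.0% lay within 200 bp. Within 1000 bp lay 86.3% at 0 h and 91.6% at 6 h, so distances over 1000 bp were more frequent at 0 h than at 1 h. The mean difference of 1 h from the others was 84.8 bp (exact permutation test, two-sided, p = 0.133, the smallest possible). RNAPII summits lay inside an H3K9ac peak in 26.9% of all RNAPII peaks at 1 h, against 45.1% at 0 h and 35.1% at 6 h. Of the RNAPII peaks that overlapped H3K9ac, 52.1%, 64.4% and 60.8% had the summit inside it at 1, 0 and 6 h. H3K9ac summits lay inside RNAPII peaks in 72.6% at 1 h, 48.9% at 0 h and 44.7% at 6 h.

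H3K9ac was most frequent beside the RNAPII summit rather than on it. Its cover at 1 h was 26.9% at the summit, 31.9% at 400 bp, 26.5% at 1000 bp and 20.8% at 3000 bp, and 18.1% at 50000 bp. At 0 h it was 45.1% at the summit and 51.0% at 400 bp, with 25.8% at 50000 bp, and at 6 h it was 35.1% and 36.4%, with 18.1% at that distance. The gap between summit and flank was therefore seen at 0 h and 1 h and was smaller at 6 h. Around H3K9ac summits at 1 h, RNAPII covered 72.6% of the positions at the summit, 73.5% at 400 bp and 59.3% at 1000 bp, so the values at the summit and at 400 bp lay closer in that direction.

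**Figure D5:**
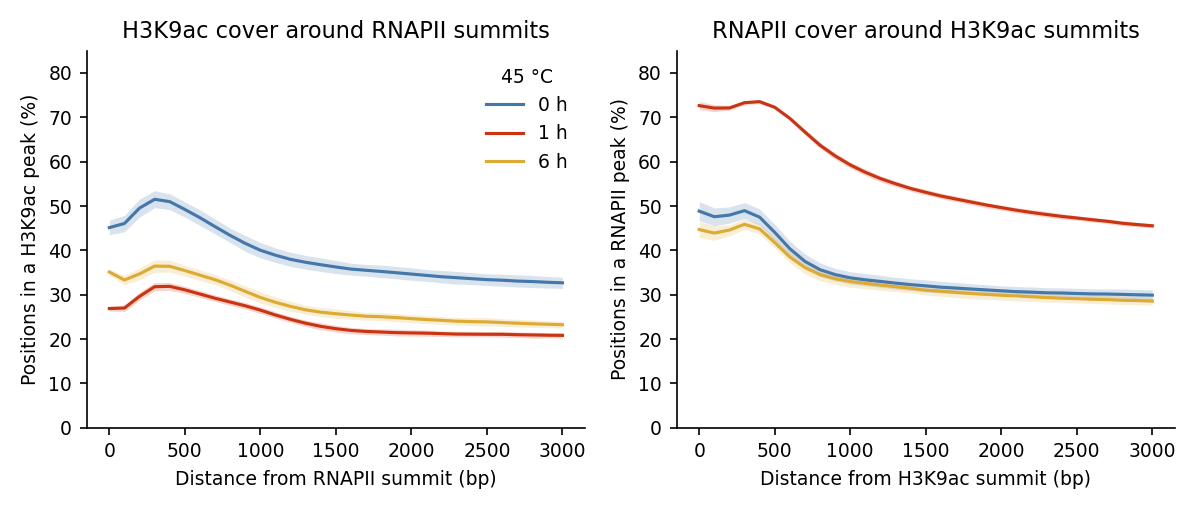
Share of positions in an H3K9ac peak by distance from RNAPII summits (left) and in an RNAPII peak by distance from H3K9ac summits (right), in percent against bp, both sides combined, at 0, 1 and 6 h. Lines are means of 4 library pairings and bands their range, and at 1 h the left curve is at 26.9% on the summit and 31.9% at 400 bp.

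In 12345 regions of 1 h each of the 4 libraries had exactly 1 peak. The largest summit distance among them was 13625 to 13666 bp at chr2:52020423-52021090, where a narrow RNAPII peak with folds of 4.07 and 4.32 touched the end of a wide H3K9ac peak with folds of 30.5 and 24.1. RNAPII was in neither library there at 0 h and 6 h. A like case was chr11:9229283-9229799, 9954 to 10078 bp, with RNAPII folds of 1.93 and 2.25. Peaks were counted within the RNAPII region, so at both sites further RNAPII peaks elsewhere along the H3K9ac peak were not excluded. At the other 3 RNAPII was the wide peak, as at chr11:35261381-35276535, with a width of 15155 bp, a summit distance of 12969 to 12979 bp and an extension of 14101 to 14196 bp. Those at chr4:60243278-60255993 and chr9:59526081-59538662 had summit distances of 10827 to 10995 bp and 8610 to 8802 bp.

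Beside the other marks at 1 h, H3K9ac held a middle place. H3K18ac was at 89.6% of the RNAPII peaks, H3K27ac at 74.2%, H3K9ac at 51.6% and H3K4me3 at 42.8%. RNAPII ran past H3K18ac by 29.2 bp at the median, past H3K27ac by 302 bp, past H3K9ac by 520.5 bp and past H3K4me3 by 618 bp. The order of the marks by share was thus the same as by extension. The lists differ in number of peaks and in covered length. They covered 131 to 134 Mb for H3K18ac and 89.0 to 96.5 Mb for H3K27ac. For H3K9ac the length was 50.1 to 52.4 Mb and for H3K4me3 43.3 to 47.7 Mb. Covered length thus gave the same order again, and its part in the shares and extensions was not tested. By summit distance the order was another, with medians of 329.5 bp for H3K27ac, 390.5 bp for H3K9ac, 427 bp for H3K4me3 and 467 bp for H3K18ac.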

How the data were processed

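ChIP-seq reads of 75 bp were, per the submitters' processing notes and the methods, trimmed with Trimmomatic 0.38, aligned to the M82 assembly version 1.0 with Bowtie2 2.3.5 and handled with SAMtools 1.9. The authors called peaks per library with MACS2 2.2.7.1 against the 0 h input, without pooling. Broad peaks at q 0.05 are stated in the methods, whereas the deposited lists hold narrow peaks to a p of 0.05. Each deposited peak has a fold enrichment (ratio) and its p-value and q-value as −log10. Heated leaves had no input of their own.

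Peaks with q of at most 0.05 on 12 chromosomes were kept (83.9% to 95.0% of the 12 RNAPII and H3K9ac lists). Coordinates count from 1 in the M82 assembly. No annotation of it was at hand, so no gene was assigned. Fragments per summit were recovered as whole numbers within 0.001 of −log10 p, for at least 99.99% of peaks with −log10 p under 280. Libraries were compared by a chi-square over peaks with summits within 30 bp and at least 60 fragments, in 20 levels. Interval functions were tested on simulated data. The smallest number of bp counted as an overlap was 1. Scripts ran in Python 3.11.15 (scipy 1.17.1, pandas 2.3.3, numpy 2.4.6), with plots from matplotlib 3.10.9.

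Named sites were the 5 highest of each of 5 rankings: RNAPII fold in acetylated and in H3K9ac-free regions, extension, summit distance, and H3K9ac fold without RNAPII. Members, lists and rules were chosen with earlier results of these data known. The test was an exact permutation test over libraries. Alternatives covered the q cutoff, lists of equal length, overlap, distance limits, joining of peaks, left-out replicates and pairing by replicate number.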

Additional observations from a re-analysis of the deposited data

Results flagged for a closer look

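Both RNAPII libraries of 1 h covered more than either of 0 h, and both H3K9ac libraries of 1 h covered less. The H3K9ac lists of 1 h were shallower than those of 0 h, and the part of depth in this was not tested. The log2 ratio of the mean covered length at 1 h over 0 h was 0.37 for RNAPII and -0.47 for H3K9ac. The median extension changed by 322 bp for RNAPII past H3K9ac and by -245 bp for H3K9ac past RNAPII. These differences between the 2 targets were not tested, and both extension values come from the same clusters, so they are not independent.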

How the results depend on the processing

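The differences of 1 h from the mean of 0 h and 6 h in overlap, extension and summit distance kept their direction in each setting run, but the mark shares, width classes and summit profiles were not recomputed across times. By covered bp, a setting added after seeing the data, the difference in overlap was -6.16 points (exact permutation p = 0.8), and the 1 h share was above that of 6 h. With at least 50% covered, also added, it was -14.6 points. The H3K9ac-free share was highest at 1 h in the 5 other settings tried for it, with 20.4% to 32.9%. The share of RNAPII peaks with H3K9ac at 1 h was 52.8% with all deposited peaks, 61.3% with lists of equal length, 29.4% where at least 50% of the peak had to be covered and 42.6% by bp. The share of H3K9ac peaks with RNAPII was 88.3% with all deposited peaks, 91.5% at q of at most 0.01, 87.0% with lists of equal length, 71.1% with 50% covered and 73.3% by bp. The extension was 478 bp with all deposited peaks, 565 bp at q of at most 0.01, 545 bp with lists of equal length, 732 bp with peaks within 500 bp joined and 499 bp in clusters of 1 and 1 peak. The summit distance was 373 bp with all deposited peaks, 408 bp at q of at most 0.01 and 407 bp over exactly 1 H3K9ac peak. H3K9ac-free regions numbered 8523 with lists of equal length, 4334 with a limit of 5000 bp and 22087 to 22349 without a replicate, where a peak in 1 library suffices. Without a replicate the extension was 510 to 530 bp and the summit distance 390 to 392 bp. The counts free of all deposited H3K9ac peaks and the shares within 500 to 1000 bp were chosen after seeing the data. With libraries paired by replicate number as a block, the values were 51.5% and 89.9% for the shares, 520 bp for the extension, 391 bp for the summit distance, and -12.3 points, 293.5 bp and 85.2 bp for the differences of 1 h from the other times. The block changed no direction or side of a threshold. The log2 fold of library 1 over library 2 was correlated between groups over 18074 regions. The correlations lay between -0.012 and 0.064 for 9 pairs of groups. Paired libraries differed by less than the sampling noise, so these values cannot show whether same-numbered libraries share more than a number. In differences of 1 h from 0 h and 6 h the exact permutation p stayed at 0.133 in every setting with all libraries except by covered bp and was 0.667 with a replicate left out, again the smallest possible. A single 0 h input, shallow H3K9ac lists at 1 h and replicates within sampling noise limit what these lists can show, and weak acetylation under the threshold is not detectable at this depth.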
